A study of Mus musculus with 12 samples.

Results

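The regions described here are strong affinity peaks of ZBTB43 on fully methylated DNA that had no counterpart in the list of peaks called on unmethylated DNA. They are the autosomal peaks of the SssI list with a score above 677 that overlapped no interval of the TKO list by 1 bp or more. Of the 17196 autosomal SssI peaks that reached this score, 5278 met the rule and 11918 overlapped a TKO interval; the latter are called shared peaks below. The members were chosen by their SssI score and by the TKO calls, so both of these are given only as a description. Of all 169284 autosomal SssI peaks, whatever their score, 154951 or 91.5% overlapped no TKO interval, and among those with a score above 677 the share was 30.7%.

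The study tested in vitro which genomic sequences ZBTB43 captures. Full-length ZBTB43 fused to MBP (maltose-binding protein) was held on beads and mixed with sonicated mouse DNA, and MBP without ZBTB43 was the background on each DNA. The SssI DNA was lung DNA of wild type C57BL/6N males aged 2 months, in which the bacterial enzyme M.SssI had added methyl groups to the CpGs after fragmentation. The TKO DNA came from 1 clone of male embryonic stem (ES) cells of the genotype Dnmt1-/-Dnmt3a-/-Dnmt3b-/-, which lack the DNA methyltransferases and were used as the source of unmethylated DNA; the labels give no background strain for them. Each of these 4 conditions, MBP-ZBTB43 or MBP on SssI or TKO DNA, had 2 libraries, which the authors pooled before they called peaks, so each DNA is represented by 1 list without replicate error. CpG methylation and the source of the DNA differed together between the lists and cannot be told apart, and the lists do not show whether depth differed too. The SssI list held 175775 peaks and the TKO list 14694, and a region missing from the shorter list may still have had signal under its calling threshold. The series also holds 4 sperm libraries, which were not analysed here.

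ZBTB43 is a zinc finger protein with a BTB domain. The study relates it to purine-pyrimidine repeats, sequences in which purines (A, G) and pyrimidines (C, T) alternate and which can leave the usual right-handed helix for the left-handed form called Z-DNA. Repeats of CA and of CG are the classical Z-forming sequences, and methylation of the cytosines in a CG repeat eases the change to the Z form in vitro. A CpG is the site at which the 2 DNAs were made to differ, whereas a CA repeat without any CpG has the same bases in either state.

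The sequences behind the peaks can be read directly from the genome assembly. The longest alternating tracts of the 5 members with the highest scores are shown first, in GRCm38 on the forward strand, 5′ to 3′, with each CpG in capitals.
chr8:123811134-123811293: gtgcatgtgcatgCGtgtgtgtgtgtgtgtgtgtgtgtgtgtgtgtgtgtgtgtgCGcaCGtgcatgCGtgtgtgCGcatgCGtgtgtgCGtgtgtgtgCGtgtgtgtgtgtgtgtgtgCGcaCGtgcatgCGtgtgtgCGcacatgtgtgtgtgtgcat
chr11:107907864-107908011: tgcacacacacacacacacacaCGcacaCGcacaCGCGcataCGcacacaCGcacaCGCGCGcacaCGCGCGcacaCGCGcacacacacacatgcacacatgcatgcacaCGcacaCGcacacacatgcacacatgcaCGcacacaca
chr3:112220273-112220344: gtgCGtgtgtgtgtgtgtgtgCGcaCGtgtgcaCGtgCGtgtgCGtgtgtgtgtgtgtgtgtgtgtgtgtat
chr9:115199596-115199656: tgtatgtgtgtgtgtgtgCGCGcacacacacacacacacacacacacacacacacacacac
chr7:49068624-49068759: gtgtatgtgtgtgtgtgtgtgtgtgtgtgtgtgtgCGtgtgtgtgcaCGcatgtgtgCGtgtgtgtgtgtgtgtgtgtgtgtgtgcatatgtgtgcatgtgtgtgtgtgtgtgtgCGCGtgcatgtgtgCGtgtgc

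All 5 were mixtures of TG or CA steps with CpGs inside the same tract. The member with the next score, 2190, at chr7:16767426-16767871, differed from them in its tract. Its longest tract of 59 bp was made of CA and TA steps without a CpG. It had 0 CpGs within 50 bp of the midpoint, but so had the fourth of the 5 members. The first held 12 CpGs in 160 bp and the second 17 in 148 bp. Both had a score of 2290, ranked 50 among all autosomal SssI peaks. The first member, at chr8:123810917-123811536, lay in intron 1 of the gene model Gm20388, which spans 4.43 Mb, and the second, at chr11:107907666-107908209, lay in intron 1 of Cacng5, a gene for an auxiliary calcium channel subunit. The third, at chr3:112220073-112220455, was intergenic with a score of 2218. The fourth lay in intron 6 of Osbpl10, a gene for an oxysterol-binding protein family member, within 3000 bp of a transcription start site and with a score of 2209, and the fifth in intron 2 of Nav2, a neuron navigator gene, with a score of 2197.

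For comparison, the longest tracts of 3 of the 4 shared peaks that tied for the highest score of the list, 2356, are shown next. In their 23, 27 and 32 bp no CpG was present.
chr16:11384256-11384278: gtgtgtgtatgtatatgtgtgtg
chr9:52966308-52966334: cacacacacacacacacacacacacac
chr7:43378948-43378979: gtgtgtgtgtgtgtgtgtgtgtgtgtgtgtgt
These peaks lay over TKO intervals with scores of 2019, 1923 and 2101 in the TKO list. Their tracts were shorter than those of the 5 members, and the peaks held 10, 5 and 9 separate alternating tracts of at least 12 bp, against 2, 1, 2, 11 and 1 in the 5 members. These few regions were picked by score and do not stand for their sets. At scores of 1500 or more, 42.1% of shared peaks and 61.8% of members had a CpG in the longest tract. Tracts of 100 bp or more were found in 17.1% and 21.9%.

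Members without CpGs existed as well. The tracts below belong to the 2 highest-scoring members that had no CpG in the peak or in 200 bp on either side, and they show the repeat in its CpG-free form.
chr15:32325371-32325473: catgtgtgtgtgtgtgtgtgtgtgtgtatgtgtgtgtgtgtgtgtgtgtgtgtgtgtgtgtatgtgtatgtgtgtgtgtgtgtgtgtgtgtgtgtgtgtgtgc
chr11:30558471-30558530: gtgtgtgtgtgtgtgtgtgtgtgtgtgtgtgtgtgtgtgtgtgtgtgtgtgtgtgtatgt
The first lay in intron 1 of Sema5a, a gene for a semaphorin of axon guidance, with a score of 1523 and a tract of 103 bp. The second lay in intron 3 of Acyp2, an acylphosphatase gene, with a score of 1448.

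The score is 10 times the −log10 of the q-value that MACS2 gave, cut to a whole number, and it orders peaks within 1 list only. The members occupied the lower part of the strong range. Their scores ran from the minimum of the rule to 2290 with a median of 870 (interquartile range 758 to 1066), against a median of 1293 (1022 to 1583) in shared peaks. At scores under 800, 1888 of 2745 peaks, or 68.8% (95% Wilson interval 67.0 to 70.5%), were absent from the TKO list. This share was 47.9% at 800 to under 1000, 29.5% at 1000 to under 1200 and 14% at 1200 to under 1500, and it was 6.14% (5.44 to 6.91%, 251 of 4091) at 1500 or more. The intervals of these shares, here and below, cover counting error over peaks and not the variation between captures. At the threshold itself 39 members had the lowest score the rule admits, and 62 peaks without a TKO interval had 677. The widest of the former, at chr13:56744569-56745796, was 1228 bp wide with 1 CpG and a longest tract of 52 bp; the widest of the latter, at chr13:12331446-12332231, was 786 bp wide with 7 CpGs and a longest tract of 58 bp.

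Members were narrower than shared peaks, the median being 329 bp in members, with quartiles of 287 and 393 bp, and 453 bp in shared peaks, with quartiles of 364 and 579 bp. Width belongs to the same peak call as the score and is a description too. It bears on every count over a whole peak, since a wider peak holds more sequence. For that reason CpGs were also counted within fixed distances of the midpoint. The midpoint stood for the summit, which the lists do not give.

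The centre of the members was richer in CpGs than that of shared peaks. A CpG lay within 50 bp of the midpoint in 2905 of 5278 members, or 55.0% (53.7 to 56.4%), and in 46.3% (45.4 to 47.2%) of shared peaks. The difference was 8.73 percentage points (95% Newcombe interval 7.12 to 10.3), and it had the same direction on 19 of 19 autosomes. The mean number of CpGs within 50 bp was 2.01 in members and 1.58 in shared peaks. Between 500 and 1000 bp from the midpoint the means were 9.58 and 9.81 CpGs, with the members higher on 5 autosomes and lower on 14, and the interval of the difference was −0.449 to −0.0165. Over all scores the excess was thus at the midpoint.

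This contrast grew with the score. Among peaks with scores under 800, 51.1% of members and 47.4% of shared peaks had a CpG within 50 bp of the midpoint, and the interval of this difference, −0.30 to 7.75 points, included 0. The difference was 9.45 points at 800 to under 1000, 14.7 points (10.9 to 18.6) at 1000 to under 1200 and 18.9 points (14.3 to 23.3) at 1200 to under 1500. It was largest of the 5 score classes at 1500 or more, where 182 of 251 members, or 72.5%, against 50.5% of 3840 shared peaks had a central CpG, a difference of 22.0 points (15.9 to 27.4) with the same direction on 19 of 19 autosomes. These 251 members had a mean of 4.26 CpGs within 50 bp, against 1.88 in shared peaks of that class. Although they were narrower, they also held more CpGs over the whole peak, with means of 8.75 and 6.14. In this class the excess reached beyond the centre. Members had 0.603 more CpGs (0.115 to 1.09) between 100 and 200 bp from the midpoint, on 12 of 19 autosomes. Between 200 and 500 bp they had 1.09 more (0.134 to 2.04), on 15 of 19 autosomes.

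**Figure D1:**
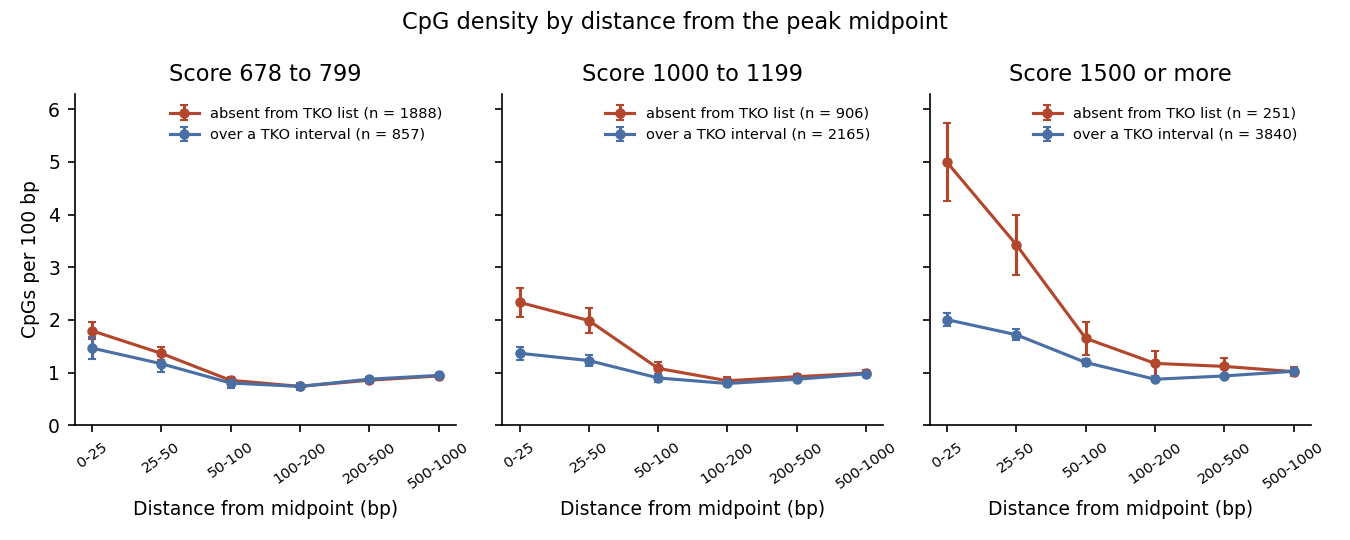
CpGs per 100 bp (vertical axis) by distance from the peak midpoint in bp (horizontal axis), for members (red) and shared peaks (blue) in 3 score classes; points are means over peaks and bars are 95% normal intervals over peaks. In the class of 1500 or more the members start at 4.99 CpGs per 100 bp and the shared peaks at 2.00, and both end at 1.02 between 500 and 1000 bp.

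Seen from the other side, absence from the TKO list was more frequent where more CpGs stood within 50 bp of the midpoint. In the class of 1500 or more, 3.51% (2.78 to 4.41%) of peaks with 0 CpGs within 50 bp were absent, 4.57% of those with 1 to 2, 10.5% of those with 3 to 5 and 15.3% (12.5 to 18.6%) of those with 6 or more. At 1000 to under 1200 the corresponding shares were 23.7%, 31.5%, 38.3% and 46.2%. Under 800 they ran from 67.2% (64.6 to 69.6%) to 74.8% (68.9 to 79.9%), so that their intervals overlapped. Counted within 100 bp, the share over all scores was 25.5% at 0 CpGs, 39.1% at 6 to 9 and 31.0% at 10 or more. Between these last 2 counts it fell from 46.4% to 40.4% at scores of 1000 to under 1200. At 1500 or more it rose from 12.7% to 13.8%.

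**Figure D2:**
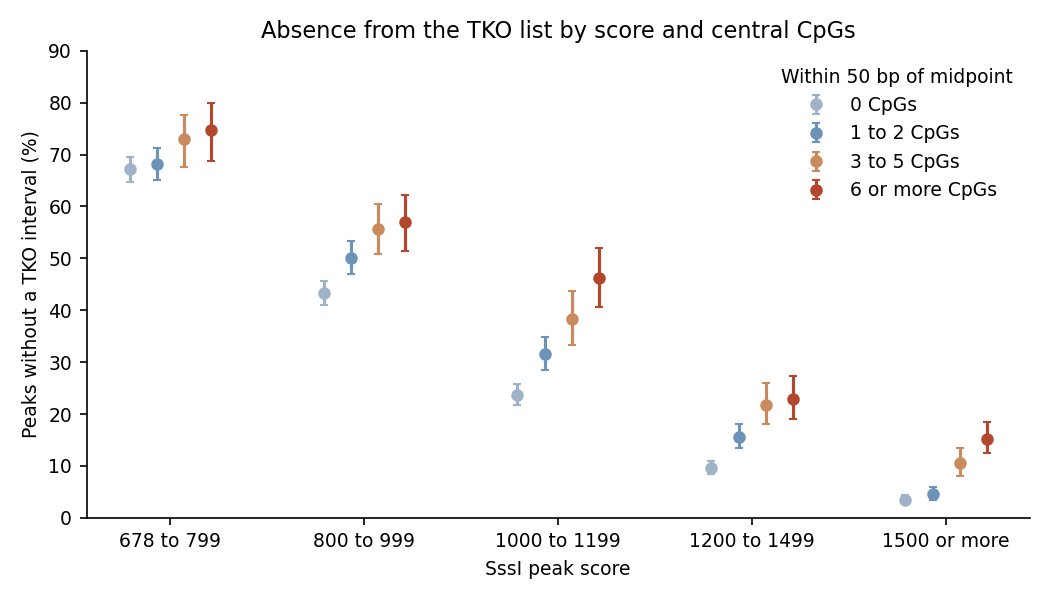
Share of strong SssI peaks absent from the TKO list in percent (vertical axis) by SssI score class (horizontal axis) and by the number of CpGs within 50 bp of the midpoint (colours); bars are 95% Wilson intervals. Within each score class the share is lowest at 0 CpGs and highest at 6 or more, from 3.51% to 15.3% in the highest class.

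Width moved with these counts. Over all strong peaks 300 to under 500 bp wide, the difference in the share with a CpG within 50 bp of the midpoint was 4.84 points (2.68 to 6.99), against 8.73 points at all widths. At scores under 800 it was 3.33 points at these widths, with an interval that included 0 (−2.56 to 9.14). Among peaks 300 to under 500 bp wide with scores of 1500 or more, 149 of 196 members, or 76.0%, had a CpG within 50 bp of the midpoint, against 55.3% of 1865 shared peaks, which is 20.7 points more (13.9 to 26.6). The longest tract lay nearer the midpoint in members, with its centre a median of 28 bp away against 52.5 bp. Counted within 50 bp of the centre of the longest tract in place of the midpoint, 57.1% of members and 51.7% of shared peaks had a CpG, a difference of 5.43 points (3.81 to 7.05).

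Counts over the whole peak gave another picture. No CpG was present in 694 members, or 13.1% (12.3 to 14.1%), and in 9.36% (8.85 to 9.89%) of shared peaks, a difference of 3.79 points (2.76 to 4.86) in the opposite sense. Within 100 bp of the midpoint it was the shared peaks that more often had none, 36.7% against 28.3%. Among peaks 300 to under 500 bp wide the shares without a CpG in the peak were 11.2% and 11.0%, and the interval of their difference, −1.18 to 1.55 points, included 0. In comparison, 16.3% of consecutive genomic windows of 329 bp, the median width of the members, held no CpG. Of all autosomal SssI peaks 31.5% held none, but their median width was only 196 bp. Less sequence was counted in them, so this share is not directly comparable with the others.

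A small group of 98 members, or 1.86%, had no CpG even with 200 bp added on either side. This was also the case in 161 shared peaks, or 1.35%, which is 0.506 points less (0.107 to 0.950), with the same direction on 13 of 19 autosomes. Absence from the TKO list in these CpG-free regions was 72.4% (42 of 58) under 800 and 47.7% (31 of 65) at 800 to under 1000, beside 68.7% and 47.9% in peaks with CpGs. At 1500 or more 1 of 37 CpG-free peaks was absent, the region in Sema5a shown above, which is 2.70% with an interval of 0.479 to 13.8%. In none of the 5 score classes did the interval of the CpG-free peaks leave out the share of the others.

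Alternating tracts were present in nearly all members. A tract of at least 12 bp, not counting runs of A and T alone, was found in 5227 of 5278 members, or 99.03% (98.7 to 99.3%), in 97.5% of shared peaks and in 14.3% of the genomic windows. The longest tract had a median of 52 bp in members (interquartile range 40 to 72 bp) and 49 bp in shared peaks (35 to 74 bp). Although these medians were close, the spread differed. Tracts of 36 to 99 bp were the longest in 74.0% of members and 58.2% of shared peaks, 15.8 points apart (14.3 to 17.3), whereas tracts of 100 bp or more were found in 7.92% and 15.6%, 19 of 19 autosomes having each of these directions. The highest scores did not show this pattern. At 1500 or more, tracts of 36 to 99 bp were the longest in 56.2% of members and 52.3% of shared peaks (3.88 points, −2.50 to 10.1), and tracts of 100 bp or more were found in 21.9% and 17.1% (4.80 points, −0.028 to 10.4).

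The number of tracts differed more clearly. The median member held 3 tracts and 107 bp of tract sequence, and the median shared peak 5 tracts and 150 bp. From 1 to 4 tracts were present in 65.99% (64.7 to 67.3%) of members against 44.5% (43.6 to 45.4%) of shared peaks. Conversely 10 or more were present in 9.06% and 21.7%, with the same direction on 19 of 19 autosomes. Within the score class of 1500 or more these shares were 8.37% and 22.99%, and within the class under 800 they were 10.1% and 18.6%. Since shared peaks were wider, width moved with this count. At widths of 300 to under 500 bp, 3.32% of members and 6.43% of shared peaks with scores of 1000 to under 1200 had 10 or more tracts (difference −3.11 points, −5.00 to −0.998). At 800 to under 1000 the difference was −2.82 points (−5.14 to −0.496). In the other 3 score classes at these widths the interval included 0, from −4.38 to 2.69 points under 800, from −3.52 to 0.173 points at 1200 to under 1500 and from −4.31 to 0.126 points at 1500 or more.

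**Figure D3:**
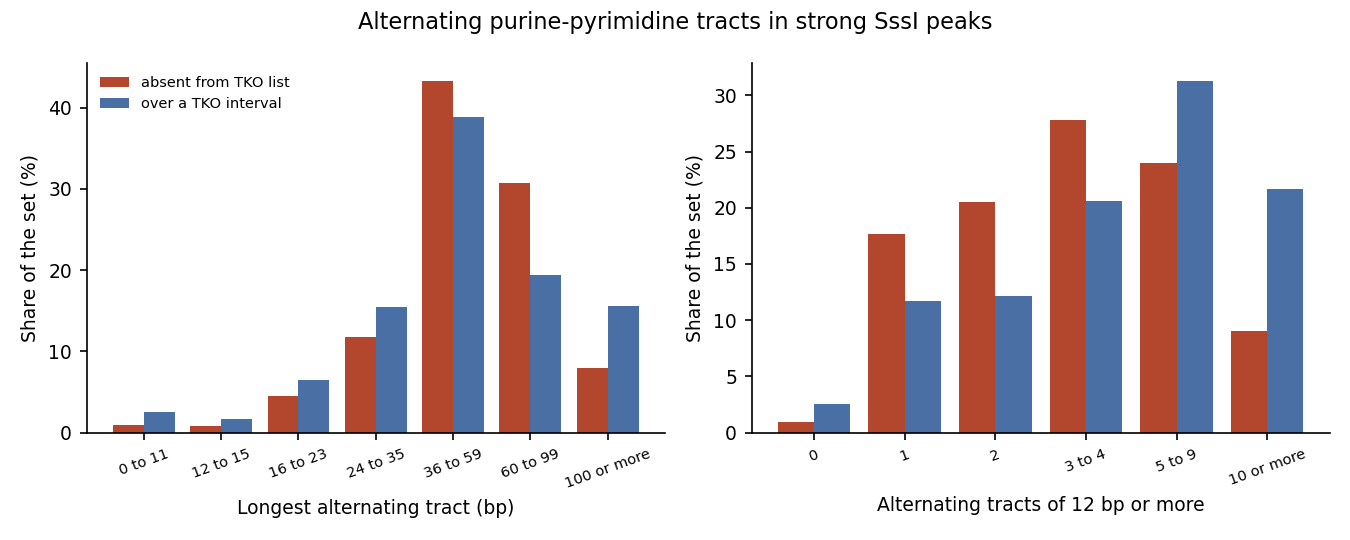
Share of members (red) and of shared peaks (blue) in percent (vertical axes, from 0) by the length of the longest alternating tract in bp (left) and by the number of tracts of 12 bp or more (right). Members gather at tracts of 36 to 99 bp (74.0% against 58.2%) and at 1 to 4 tracts (65.99% against 44.5%), and 10 or more tracts are found in 9.06% of members against 21.7%.

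CpGs inside the longest tract were present in part of the set. A CpG lay inside the longest tract in 2265 members, or 42.9% (41.6 to 44.2%), and in 39.4% (38.5 to 40.3%) of shared peaks, a difference of 3.53 points (1.93 to 5.13) with the same direction on 16 of 19 autosomes. When any tract of the peak was counted, the shares were 62.6% and 62.5%. The difference in the longest tract was 1.66 points at scores under 800, with an interval that included 0 (−2.29 to 5.56), and 19.6 points (13.3 to 25.6) at 1500 or more, where 155 of 251 members or 61.8% had one against 42.1% of shared peaks. Longer tracts more often held a CpG: 32.0% of the members whose longest tract was 36 to 59 bp had one, and 65.7% of those at 60 to 99 bp. In shared peaks with tracts of these lengths the shares were 30.6% and 65.2%, so over all scores the difference within a length class was 1.44 points (−0.87 to 3.78) and 0.557 points (−2.47 to 3.56). At 1500 or more it was 15.7 points (4.31 to 27.1) for tracts of 36 to 59 bp and 11.7 points (−0.054 to 20.6) for 60 to 99 bp.

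By composition, CA repeats were the common element of both sets. An uninterrupted (CA)n of at least 12 bp, read on either strand, was present in 94.9% (94.3 to 95.5%) of members and 91.4% of shared peaks, and in 5.05% of the genomic windows. Tetranucleotide (CACG)n of at least 16 bp was found in 142 members, or 2.69%, and in 2.24% of shared peaks, and the interval of the difference, −0.042 to 0.985 points, included 0. It left out 0 at a minimum of 24 bp, where the difference was 0.524 points (0.162 to 0.932), and with shared peaks weighted to the score classes of the members, an alternative chosen after seeing the data, where it was 0.900 points (0.331 to 1.47). Pure (CG)n of at least 12 bp was found in 128 members, or 2.43%, against 1.59%, a difference of 0.839 points (0.388 to 1.34) on 15 of 19 autosomes. Both CpG-containing repeats were rare in the genomic windows, at 0.0254% and 0.0538%. In the class of 1500 or more, (CACG)n was present in 4.78% of members against 2.37%, and (CG)n in 4.78% against 1.46%, each with 12 members. These differences were 2.41 points (0.318 to 5.83) and 3.32 points (1.25 to 6.73), and they held on 10 and 8 of 19 autosomes.

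Over all scores the kinds of longest tract lay within a few points of each other. Pure CA tracts made up 14.4% of the longest tracts in members and 13.5% in shared peaks, and CA tracts with CG steps 7.33% and 6.10%. CA tracts with TA steps made up 21.5% and 24.1%, a difference of −2.61 points (−3.94 to −1.25). The remainder were mixtures (55.8% and 53.7%) or fell below 12 bp. At 1500 or more the CA tracts with CG steps reached 11.6% of members against 5.52% of shared peaks, and those with TA steps 10.8% against 22.1%.

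The members with the most CpGs varied in their tracts. The member with the most CpGs, 68 in 446 bp at chr11:97575045-97575490, lay in intron 1 of Srcin1, a gene for an inhibitor of Src kinase signalling, within 3000 bp of a transcription start site, and had a longest tract of only 16 bp without a CpG. The member with the second-highest count, 66 in 641 bp at chr4:48044811-48045451, lay near a start site too and had a tract of 58 bp with 8 CpGs. The third-highest, with 64 CpGs at chr5:147112595-147113468, was intergenic and had no tract of 12 bp. It was among the 51 members, 0.97%, without one. The member with the fourth-highest count, with 59 CpGs in 1109 bp in Ttc39c, held 48 tracts, the longest of 16 bp. CpG-dense members were few, and 62 members held 20 or more CpGs, beside 365 shared peaks. Of the strong peaks with 20 or more CpGs, 14.5% (11.5 to 18.2%) were thus absent from the TKO list, against 30.7% of all strong peaks. At scores of 1500 or more this was 10.2% (6.60 to 15.3%), above the 6.14% of that score class. In each lower score class it was below the share of the class.

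By position, the members resembled the shared peaks. Introns held 44.5% (43.1 to 45.8%) of members and 45.8% of shared peaks, and intergenic sequence 45.8% and 44.5%. Promoters, defined as the 3000 bp upstream of a start site, held 8.26% and 8.73%. For all 3 classes the interval of the difference included 0. With promoters of 1000 bp, introns held 47.0% of members and 48.9% of shared peaks, a difference of −1.84 points (−3.46 to −0.223). Coding or noncoding exons outside promoters and UTRs held 34 members, or 0.644%, against 0.571%. The 3′ UTR held 42 members, or 0.796% (0.589 to 1.07%), against 0.436% (0.333 to 0.572%) of shared peaks, a difference of 0.359 points (0.113 to 0.656) with the same direction on 14 of 19 autosomes. These annotation classes are close to those of all autosomal SssI peaks, of which 44.0% were intronic and 45.7% intergenic.

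Members were found on every autosome. The share of strong peaks that were absent ran from 26.2% (23 to 29.7%) on chromosome 16 to 35.1% (31.9 to 38.4%) on chromosome 7. Chromosome 1, at 34.1% (31.6 to 36.8%), also lay above the share of 30.7% for all autosomes, and chromosomes 8 and 10, at 27.3% and 26.3%, lay below it. For the other 14 autosomes the interval included the share of all autosomes.

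**Figure D4:**
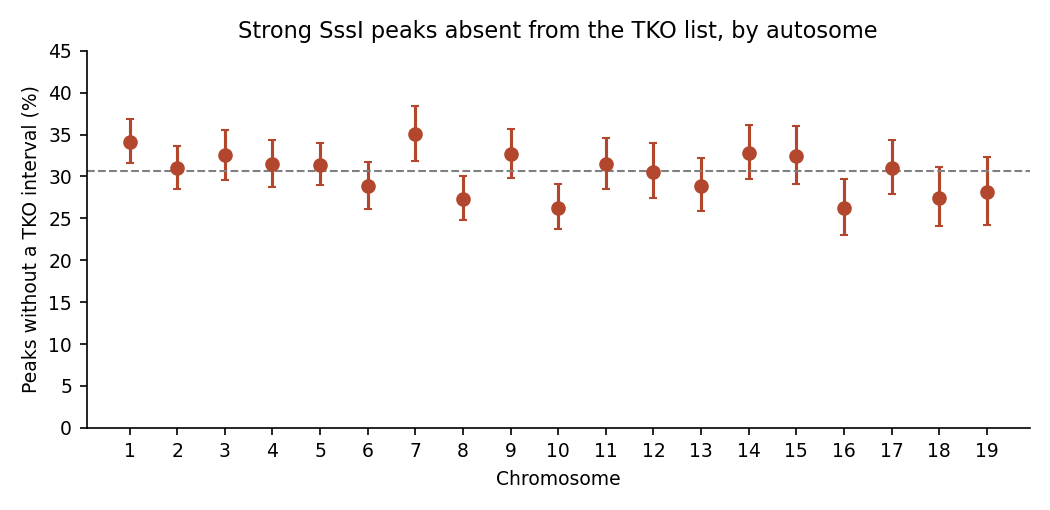
Share of strong SssI peaks absent from the TKO list in percent (vertical axis, from 0) for each autosome (horizontal axis); bars are 95% Wilson intervals and the dashed line is the share over all autosomes, 30.7%. The shares run from 26.2% on chromosome 16 to 35.1% on chromosome 7, and chromosomes 1, 7, 8, 10 and 16 have intervals that leave out the line.

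Members were interspersed with shared peaks. When the strong SssI peaks were read in order along each chromosome, 2435 members had a shared peak or a chromosome end on either side, and 1514 came in pairs. The share of absent peaks over all strong peaks was 30.7%. These counts were not compared with those of a random order and are a description. The nearest TKO interval was a median of 44968 bp away (interquartile range 16632 to 107377 bp). Only 38 members, or 0.72%, had one within 500 bp, so near misses of the overlap rule were few. The distance to the nearest SssI peak of any score did not set members apart, with medians of 3970 bp in members and 3914 bp in shared peaks.

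The longest series of successive members held 12 of them on chromosome 9, between 83815110 and 86317253, but 7 of these lay between TKO peaks whose numbers leave a gap, so that called intervals may be missing there. A series without such a gap and without any TKO interval was chosen after the values were seen, on chromosome 15 between 48605123 and 50457150. It ran from Csmd3, a gene for a very large membrane protein with CUB and sushi domains, into intergenic sequence. Its 7 members had scores of 793, 1304, 944, 1428, 1171, 720 and 1385 and CpG counts of 0, 1, 1, 0, 1, 1 and 2. Thus 3 of them scored over 1200 with at most 2 CpGs. Another 72 SssI peaks of lower score lay in the same 1852 kb, whereas the nearest TKO intervals were 679.7 kb before it and 848 kb after it.

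**Figure D5:**
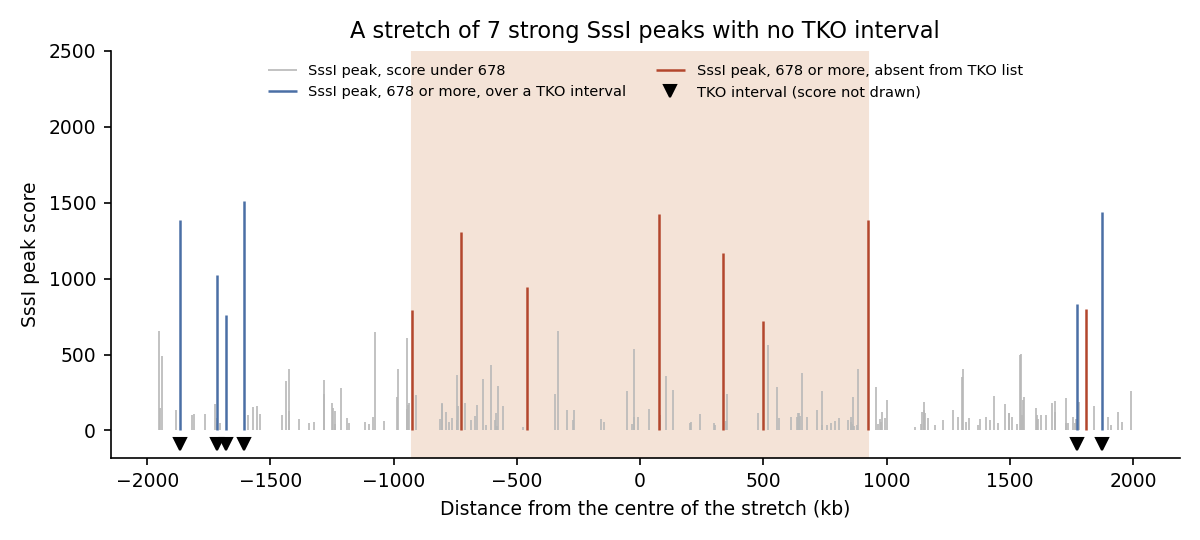
SssI peak scores (vertical axis) by distance in kb from the centre of the series of 7 members on chromosome 15 (horizontal axis; shaded); red lines are members, blue lines shared peaks, grey lines SssI peaks with scores of 677 or less and black triangles TKO intervals. The shaded 1852 kb hold 7 members and 72 weaker peaks and no TKO interval, and the 6 TKO intervals of the map lie outside it.

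Of the members, 2257 lay in a protein-coding gene by the annotation of their midpoint, and 1673 autosomal protein-coding genes held at least 1 within their bounds, 1294 of them exactly 1. In 782 of the 1673 genes no shared strong peak was present. Of the 136 genes with 3 or more members, 6 had no shared strong peak. Most of the 1673 genes held a single member, and over all strong peaks 30.7% were members. The corresponding share among genes with a shared peak is not given, so these counts are a description. The genes with the most members were long ones. Gm20388 held 17 members but 73 shared peaks. Rbms3, a gene for an RNA-binding protein, held 12 members and 22 shared peaks in 1.06 Mb. Rasgef1b, a gene for a Ras exchange factor, held 8 members and 6 shared peaks in 0.512 Mb.

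Auts2, a gene linked to neurodevelopment, held 7 members and 2 shared peaks. The α-catenin genes Ctnna2 and Ctnna3, whose products link cadherins to actin, each held 6 members and 3 shared peaks, and Osbpl10, which also held the fourth-ranked member, had the same numbers in 0.254 Mb. Dpp6, which encodes an auxiliary subunit of potassium channels, and Lmntd1 each held 6 members and 4 shared peaks. Csmd1, a relative of Csmd3, held 6 of each. Sdk1, a cell adhesion gene, held 6 members and 8 shared peaks, and Gpc6, a glypican gene, 6 and 13. The genes were named by their count of members, with ties going to those with fewer shared peaks, so these counts are a description. Not all of the 10 genes with 6 members are named. Those left out had at least as many shared peaks as Gpc6.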

How the data were processed

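Affinity-seq libraries with MBP-ZBTB43 or MBP on SssI and TKO DNA were sequenced by the authors, who aligned reads to mm10 with bwa mem 0.7.17, merged the 2 libraries of a condition and ran MACS2 2.2.7.1 at default parameters, using the MBP libraries as control. The deposited lists give positions and a score, which the authors' peak caller makes from the q-value; they hold no read counts, so the depth behind each peak could not be computed. The study states sequencing depths for its affinity-seq libraries alike, without a value for each, and none was used. In the TKO list 416 peak numbers are missing, 296 of them inside chromosomes, and 139 members lay beside such a gap.

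Overlap meant 1 bp or more, and its counts equalled those of bedtools 2.31.1. CpGs, alternating tracts (at least 12 bp, not A and T only) and repeats were read from GRCm38, whose autosomes have the mm10 lengths, so CpGs are those of the reference and not of the DNA used. Midpoints were annotated with GENCODE M21, and genomic windows were consecutive. Python 3.11.15, numpy 2.4.6, pandas 2.3.3 and matplotlib 3.10.9 were used, and the functions were tested on simulated data. The pooled lists allow no test between conditions, so no p-value is given. The coverage tracks of single libraries that the study names were not analysed here. Shares have Wilson and differences Newcombe 95% intervals, and the number of autosomes with the same direction is a description.

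The members and lists were chosen with earlier results of these data known. Regions named are the 10 highest-scoring members, the 5 highest-scoring without a CpG in the peak and 200 bp around it, the 5 with the most CpGs, 3 on each side of the score minimum and the 12 genes with the most members, of which those that carry a comparison are printed, and shared peaks of the highest score. Alternatives covered the score minimum, the overlap rule, tract lengths, windows, widths, score ranges and annotation.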

Additional observations from a re-analysis of the deposited data

How the results depend on the processing

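No paired analysis was possible because the duplicates of each condition were pooled before peaks were called. Among 45 alternatives, 24 gave a value inside the interval first reported, or within 1.5 times a count. A score minimum of 500 gave 9891 members and an absent share of 43.3%, and a minimum of 1000 gave 1676 and 15.4%. When only an overlap of 50% of the SssI peak counted as shared, the absent share was 42.8%. Leaving out chromosome 8, adding the X chromosome, merging peaks within 200 bp and leaving out members beside a gap in the TKO numbers kept the values within those bounds.

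The share without a CpG, 3.79 points higher in members, turned to −8.39 points within 100 bp of the midpoint. It was 0.506 points with 200 bp added on either side, 1.24 points at scores under 1000, 0.158 points at widths of 300 to under 500 bp and 0.644 points with shared peaks weighted to the score classes of the members, an alternative chosen after seeing the data. The excess of members with a CpG within 50 bp of the midpoint was 4.84 points at widths of 300 to under 500 bp and 5.43 points around the longest tract, both chosen after seeing the data. For alternating tracts the difference of 1.58 points was 1.03, 2.41 and 4.44 points at minimums of 10, 16 and 24 bp and 2.53 points within 100 bp of the midpoint. A CpG in any tract differed by 0.142 points. At a minimum of 24 bp the difference was 7.095 points for (CA)n and 0.0022 points for (CG)n, which then rested on 1 member. Promoters turned from −0.466 to 0.233 points at 1000 bp, and exons from 0.0736 to −0.294 points when any exon overlap counted; each of these intervals included 0. Depth, which the lists do not give, limits what absence from the TKO list means.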
